A study of Mus musculus with 12 samples.

Results

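Regions in exons of protein-coding genes were the ChIP-seq regions whose summit, the base of highest enrichment, lay in a coding exon or an untranslated region (UTR) of a protein-coding gene and more than 3 kb from every transcript start of such genes. Starts of non-coding transcripts were not considered, so one of them may lie closer. On chromosomes 1 to 19, 236 of 9043 regions were of this kind, in 219 genes. A coding exon held 109 of the summits and a 3' UTR held 127, and none lay in a 5' UTR. Under the distance rule, 5' UTRs made up only 0.694% of the bases that could hold such a summit.

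FOXP3 and Ku70 were profiled by ChIP-seq in sorted mouse CD4+ T cells in 12 samples, which formed 4 sets of 2 immunoprecipitated replicates and 1 input each. FOXP3 was immunoprecipitated from wild-type (WT) Tregs and from Ku70-knockout (KO) Tregs. Ku70 was immunoprecipitated from WT Tregs and from WT conventional T (Tconv) cells. All mice were on the C57BL/6J background and carried Foxp3 Yfp-Cre, in which the Foxp3 gene drives a YFP-Cre fusion. The WT mice had an intact Xrcc6, the gene of Ku70. The KO mice carried Xrcc6 fl/fl in addition, so deletion was limited to cells that express Foxp3. Tregs were sorted as CD4+CD25+YFP+ cells and Tconv cells as CD4+CD25-YFP- cells. Mice of 6 to 30 weeks were used in the study, with no age given for these samples alone. The 2 replicates of a set are biological replicates by the methods, which do not say how many animals each came from. Each set was deposited as 1 list, for which the replicates had been pooled before calling. The replicate error is therefore unknown, and every test compares lists and not conditions. The lists hold no read counts, so the depth behind a value is unknown, and all 95% Wilson intervals cover counting error of regions only. Sorting purity could not be checked with marker genes in lists of regions.

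FOXP3 is the forkhead transcription factor that defines Tregs and binds mostly at promoters and enhancers. Ku70 pairs with Ku80 in a ring that slides onto broken DNA ends and starts their joining. Exons make up a small part of the genome. Coding exons hold the bases that are translated, and the 3' UTR follows the stop codon, usually within the last exon. Gene families that arose by tandem duplication, such as C2H2 zinc finger and pheromone receptor genes, carry coding exons that resemble each other closely, so that a short read can match several genes.

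Windows of 30 bases around the summit show where in a coding exon the regions discussed most below had their centre. All are from mm10, on the strand of the gene, and the capital marks the summit base. Mb encodes the muscle oxygen carrier myoglobin, and its KO FOXP3 region chr15:77015626-77016089 (minus strand) was the strongest coding region of that list. Peak1, a pseudokinase of the cytoskeleton, held the overlapping regions chr9:56260453-56260636 (WT FOXP3) and chr9:56260415-56260670 (Treg Ku70), both on the minus strand, and the pair is printed because their summits lay close together. Irgm1 (chr11:48866235-48866887, minus strand) and Tgtp2 (chr11:49058567-49058727, minus strand) encode interferon-inducible GTPases. Ccr7 (chr11:99144862-99145465, minus strand) encodes the chemokine receptor that guides T cells into lymph nodes, and Il2rb (chr15:78481548-78481687, minus strand) the beta chain of the IL-2 receptor.
Mb, KO FOXP3: agctcttccggaatGacattgccgccaagt
Peak1, WT FOXP3: agtgggaaaactaaTgccaatcacagtaac
Peak1, Treg Ku70: cacagtaacaaccaCcgagtcaggagcacg
Irgm1, Treg Ku70: ttcagctcgaatcaTgtgaagctgtccaaa
Tgtp2, Treg Ku70: gccagtcgctgcagTcacttactatcgcat
Ccr7, Treg Ku70: gaacaaggccatcaAggtgatcattgccgt
Il2rb, Treg Ku70: gctgtctgccaataGctctggggagcaggc

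A second set shows the repeated sequence shared by coding regions of C2H2 zinc finger genes. In these proteins each finger is joined to the next by a conserved linker, and GAGAAACC (capitals) encodes part of it. The 5 windows below show copies found within 50 bp of a summit on the strand of the gene. The regions were chr4:145701529-145701714 (Zfp980, WT FOXP3), chr4:146125251-146125390 (Zfp987), chr2:177314612-177314772 (Gm14412, minus strand), chr4:146537516-146537655 (Zfp981) and chr4:145702369-145702532 (Zfp980, Tconv Ku70), and all except Gm14412 were on the plus strand.
Zfp980, WT FOXP3: ttcattcaggaGAGAAACCttacaaatgta
Zfp987, WT FOXP3: ttcatacaggaGAGAAACCttacaaatgca
Gm14412, KO FOXP3: cacatacaggaGAGAAACCctatgaatgta
Zfp981, Tconv Ku70: ttcatactggaGAGAAACCttacaaatgca
Zfp980, Tconv Ku70: ttcatgcaggaGAGAAACCttacaaatgta

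Exonic regions were a small share of every list and took the largest share among the Ku70 regions of Tconv cells. The share was 1.72% for WT FOXP3 (29 of 1690 regions, 1.20 to 2.45%), 1.95% for KO FOXP3 (10 of 513, 1.06 to 3.55%), 2.64% for Treg Ku70 (136 of 5149, 2.24 to 3.12%) and 3.61% for Tconv Ku70 (61 of 1691, 2.82 to 4.61%). The bases that could hold such a summit came to 43.0 Mb, or 1.79% of the called bases of these chromosomes. The interval of both FOXP3 lists included that share of bases, while the intervals of both Ku70 lists lay above it, with ratios of 1.47 in Tregs and 2.01 in Tconv cells. Of the 15998 genes with such bases, 0.181% held an exonic WT FOXP3 region, 0.0625% a KO FOXP3 region, 0.8% a Treg Ku70 region and 0.381% a Tconv Ku70 region.

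In comparing lists, no exon share differed at an adjusted p of 0.05. The odds of an exonic summit in the Treg Ku70 list were 0.725 times those in the Tconv Ku70 list (Fisher's exact test, two-sided, p = 0.0441, Benjamini-Hochberg adjusted p = 0.0662 over 3 comparisons). For WT FOXP3 against Treg Ku70, the odds ratio was 0.644 (exact p = 0.0351, adjusted p = 0.0662). This comparison passed under 5 other definitions, with odds ratios from 0.364 among the 513 strongest regions of each list (adjusted p = 0.0363, exact test) to 0.582 with any exon of the gene (adjusted p = 0.0168, exact test). Under others it did not pass, and at a −log10 p of at least 2 the odds ratio was 0.931. With single-copy summits it was 0.678 (adjusted p = 0.147, exact test) and without chromosome 11 it was 0.702 (adjusted p = 0.152, exact test). WT and KO FOXP3 had an odds ratio of 0.878 (exact p = 0.704, adjusted p = 0.704). The lists differ in length, and some of these calls changed with the definition of an exonic region. With any base of the region in the exon in place of the summit, the odds ratio of Treg to Tconv Ku70 was 0.717 (adjusted p = 0.0216, exact test), and among the 513 strongest regions of each list it was 1.35 (adjusted p = 0.647, exact test).

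The split between coding exons and 3' UTR did not pass the test in any comparison of lists either. Coding exons held 16 of 29 WT FOXP3 regions, 55.2% (37.5 to 71.6%), 3 of 10 KO FOXP3 regions, 30% (10.8 to 60.3%), 56 of 136 Treg Ku70 regions, 41.2% (33.3 to 49.6%), and 34 of 61 Tconv Ku70 regions, 55.7% (43.3 to 67.5%). Of the coding and 3' UTR bases that could hold a summit, 43.1% were coding, which is narrowly outside the interval only for Tconv Ku70. Whether it stays outside under the alternatives was not tested. The Tconv Ku70 share fell to 31 of 61 with 3' UTR before coding and to 26 of 51 with single-copy summits. Without zinc finger and sensory receptor genes, an alternative added after seeing the data, it was 25 of 51. It rose with 1 kb from starts (44 of 74), protein-coding transcripts only (34 of 59) and a −log10 p of at least 2 (17 of 27). The odds ratio for a coding summit was 0.556 between Treg and Tconv Ku70 (Fisher's exact test, p = 0.0647, adjusted p = 0.194), 2.87 between WT and KO FOXP3 (exact p = 0.273, adjusted p = 0.273) and 1.76 between WT FOXP3 and Treg Ku70 (exact p = 0.216, adjusted p = 0.273). As a share of all regions, 3' UTR summits were 1.55% in Treg and 1.60% in Tconv Ku70, and coding summits were 1.09% and 2.01%.

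**Figure D1:**
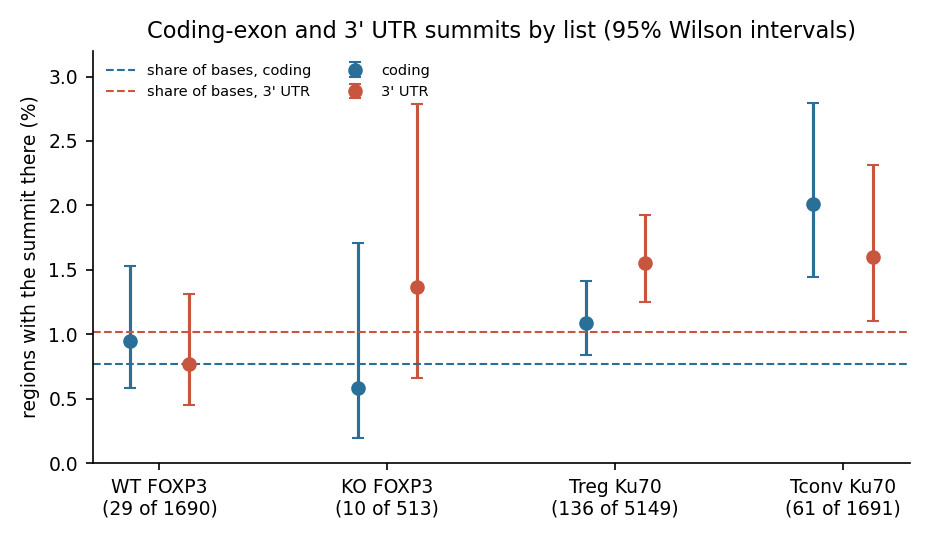
Share of regions on chromosomes 1 to 19 with a summit in a coding exon or a 3' UTR, in percent, for each of the 4 lists. Points are shares, bars are 95% Wilson intervals and dashed lines are the share of bases of each kind, and the Tconv Ku70 list had 2.01% coding and 1.60% 3' UTR summits against 0.767% and 1.01% of bases.

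Exonic regions were weakly enriched. Their median enrichment over the local background was 2.14-fold for WT FOXP3, 2.07-fold for KO FOXP3, 2.04-fold for Treg Ku70 and 2.11-fold for Tconv Ku70, beside 2.02, 2.16, 2.04 and 2.12-fold in the other regions of the same lists. The strongest reached 2.89, 3.19, 3.71 and 3.17-fold. Many had exactly the same score, as did other regions: in Treg Ku70, 60 of 136 exonic regions (44.1%) and 2406 of 5013 others (48.0%) had a −log10 p of 1.47. After the peak caller's correction over each list, 1 exonic region had a −log10 q above 0, the 3' UTR region of Speer4e in Tconv Ku70, a gene of a testis-expressed family, with a −log10 q of 1.00. Over whole lists, a −log10 q above 0 was held by 0.118% (WT FOXP3) and 0.585% (KO FOXP3) of FOXP3 regions, and by 0.194% (Tregs) and 0.414% (Tconv cells) of Ku70 regions.

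**Figure D2:**
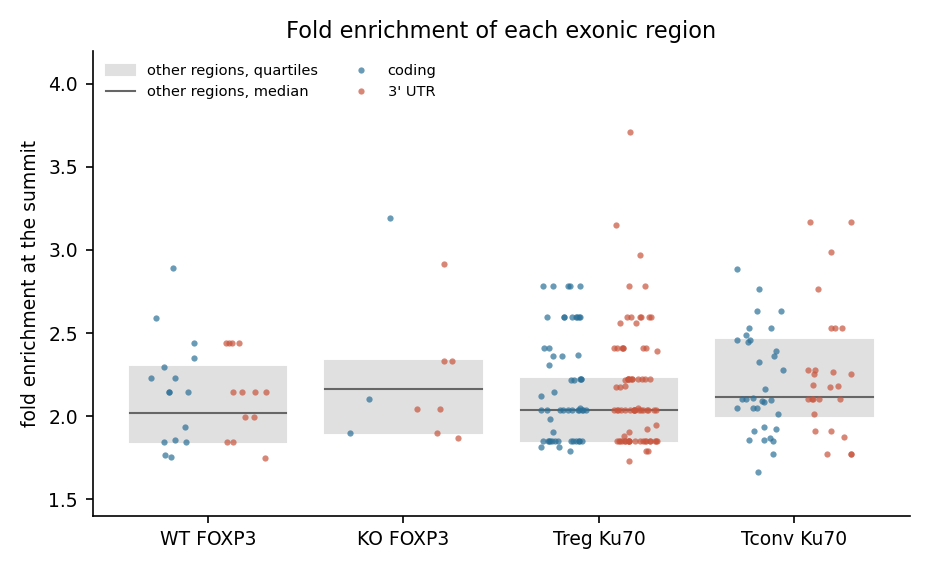
Fold enrichment over the local background at the summit of each exonic region, by list and by coding exon or 3' UTR. Points are single exonic regions, grey boxes and lines are the quartiles and median of the other regions of the list, and the highest point is the Treg Ku70 region in the 3' UTR of Cd274 at 3.71-fold.

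Most of these regions lay wholly inside the exon. All bases were exonic in 21 of 29 WT and 9 of 10 KO FOXP3 regions, and in 107 of 136 Treg and 42 of 61 Tconv Ku70 regions. Regions were short, with median widths of 164, 194.5, 160.5 and 164 bp, beside 168, 167, 170 and 183 bp in the other regions of these lists. Coding summits lay in long exons: the exon had a median length of 425 bp in WT FOXP3, 586 bp in KO FOXP3, 1476 bp in Treg Ku70 and 542 bp in Tconv Ku70, where a coding base that could hold a summit lay in an exon of 216 bp at the median. The last exon of the transcript held 43.8%, 66.7%, 46.4% and 35.3% of the coding summits, beside 26.9% of such bases. The coding regions of Treg Ku70 had a median GC content of 45.0% around the summit and those of Tconv Ku70 of 50%, and the median for coding bases was 50%. All other regions, including those with exonic summits near a start, had medians of 44.6% in Treg Ku70 and 48.5% in Tconv Ku70. These position and composition values are descriptions with no test.

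The distance limit removed many exonic summits. Without it there were 40 in WT FOXP3, 18 in KO FOXP3, 222 in Treg Ku70 and 86 in Tconv Ku70. With it there were 29, 10, 136 and 61. Some cases lay close to the limit. Rreb1, a zinc finger transcription factor, was kept at 3095 bp from the nearest start (1.85-fold, Treg Ku70), and Aspm, a spindle protein, at 3195 bp (2.41-fold, Treg Ku70). Fgf2, a growth factor, was left out at 2993 bp (1.77-fold, Treg Ku70), and Rfc1, the large subunit of the clamp loader, at 2899 bp (1.98-fold, Tconv Ku70).

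Of the exonic KO FOXP3 regions, 4 of 10 (40%, 16.8 to 68.7%) overlapped a Treg Ku70 region by at least 1 bp, beside 3.31% of all KO FOXP3 regions. Among the other KO FOXP3 regions, 13 of 503 (2.58%) did so, and the odds ratio was 25.1 (Fisher's exact test, p = 0.000155, adjusted p = 0.000619 over 4 tests). The 4 lay in Mb, in Atp2a2, the calcium pump of the sarcoplasmic reticulum in heart and slow muscle, in Lpl, the lipoprotein lipase of muscle and fat vessels, and in Amy2a3, a pancreatic amylase. The lists come from different immunoprecipitations and genotypes and share no sample. At Amy2a3 the 31 bases at the summit occurred 4 times in the genome for KO FOXP3 and 5 times for Treg Ku70, and that placement is uncertain, while the other 3 pairs had single-copy summits.

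The Mb regions covered nearly the same bases in 3 lists. In KO FOXP3 the region was chr15:77015626-77016089 at 3.19-fold with a −log10 p of 3.45, the highest of the exonic KO regions. WT FOXP3 had chr15:77015666-77015997 at 2.44-fold (−log10 p 2.23), and Treg Ku70 had chr15:77015605-77015996 at 2.60-fold (−log10 p 2.64). The summit was coding in KO FOXP3 (position 77015967) and in the 3' UTR in WT FOXP3 (77015920) and Treg Ku70 (77015666). All lay in the same last exon of 586 bp. The Treg Ku70 summit was toward the opposite end of the shared bases from the FOXP3 summits. Mb was the only gene with an exonic region in 3 lists, and no gene had one in all 4.

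Atp2a2 and Lpl showed the same pairing of KO FOXP3 with Treg Ku70. At Atp2a2 the 3' UTR regions chr5:122453731-122454144 in KO FOXP3 (2.91-fold, −log10 p 2.71) and chr5:122453862-122454034 in Treg Ku70 (2.97-fold, −log10 p 3.31) lay one inside the other. At Lpl, chr8:68905742-68905979 in KO FOXP3 (2.33-fold, −log10 p 2.02) met chr8:68905939-68906331 in Treg Ku70 (2.41-fold, −log10 p 2.03) at its edge. The Amy2a3 regions, also in the 3' UTR, were at 2.33-fold in KO FOXP3 and 2.04-fold in Treg Ku70.

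Several further exonic regions lay in genes known from heart and skeletal muscle, a list of genes chosen after the values were seen. Of its 32 genes with eligible bases (0.572% of such bases), WT FOXP3 had 3 exonic regions, in Mb, in Neb, the thin filament ruler nebulin (coding, 2.59-fold), and in Fsd2, a protein of striated muscle (3' UTR, 2.44-fold). KO FOXP3 had 3, in Mb, Atp2a2 and Lpl. Treg Ku70 had 4, the same 3 genes and Pln, the inhibitor of that calcium pump phospholamban (coding, chr10:53343909-53344203, 2.78-fold). Tconv Ku70 had 1, in the muscle calcium channel gene Cacna1s (coding, 2.64-fold). Each of these 11 summits was single-copy. In all, 7 of the 32 genes held an exonic region in at least 1 list. The other 25 held none, among them the contractile genes Myh6, Myh7, Tnnt2, Actc1 and Ttn, where the contractile gene Neb held one. The part of muscle-derived material in these regions was not tested. The lists hold no reads, so whether reads in these regions crossed splice junctions, as reads from cDNA would, was not tested either, and the fold values do not separate such reads from chromatin.

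The other overlaps were few. For WT FOXP3, 1 of 29 exonic regions overlapped a KO FOXP3 region (3.45%), beside 1.78% of all its regions (odds ratio 2.01, Fisher's exact test, p = 0.408, adjusted p = 0.544), and that region was in Mb. A Treg Ku70 region overlapped 2 of the 29 (6.90%, 1.91 to 22.0%), beside 1.66% of all (odds ratio 4.66, exact p = 0.0816, adjusted p = 0.163), in Mb and Peak1. The Peak1 regions were at 1.94-fold in WT FOXP3 and 2.15-fold in Treg Ku70, inside a coding exon of 3236 bp. No exonic Treg Ku70 region overlapped a Tconv Ku70 region: 0 of 136, which allows a share of up to 2.21%, beside 0.816% of all its regions (exact p = 0.628, adjusted p = 0.628).

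By gene, 8 genes had exonic regions in 2 or more lists. Besides Mb, Atp2a2, Lpl, Amy2a3 and Peak1, these were Zfp980 (2.35-fold in WT FOXP3 and 2.05-fold in Tconv Ku70), Zfp987 (2.14-fold in WT FOXP3 and 2.31-fold in Treg Ku70) and the vomeronasal receptor gene Vmn2r115 (1.95-fold in Treg Ku70 and 2.09-fold in Tconv Ku70). In these 3 genes of tandem families the regions of the lists did not overlap.

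**Figure D3:**
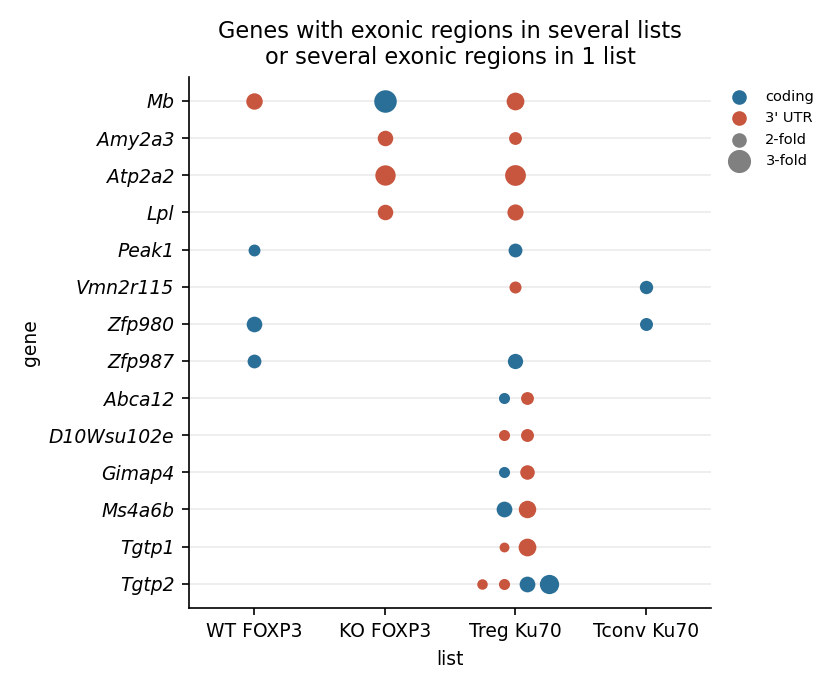
Genes with exonic regions in at least 2 lists or with at least 2 such regions in 1 list, by list. Dot size stands for the fold enrichment and colour for coding exon or 3' UTR, and Mb is the only gene with a dot in 3 lists, at 2.44, 3.19 and 2.60-fold.

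Among Treg Ku70 regions, a group of exonic summits fell in genes that interferons induce. Interferons signal infection to cells and raise several families of GTPases that attack pathogens inside the cell. The lists of such genes were put together after the values were seen, so their counts are descriptions. The interferon-inducible GTPases (22 genes, 0.166% of eligible bases) held 11 of the 136 exonic Treg Ku70 regions, 8.09%, in 7 genes. A further 4 (2.94%) lay in 26 other interferon-related genes with 0.144% of the bases. No exonic region of these listed genes was in the other 3 lists, where a count of 0 allows a share of up to 10.3% of the 29 WT FOXP3, 30% of the 10 KO FOXP3 and 4.92% of the 61 Tconv Ku70 regions. Because the genes were listed with the Treg Ku70 regions known, these counts cannot show that such regions were particular to Treg Ku70. Herc6, an interferon-induced gene outside the lists, held a KO FOXP3 region in its 3' UTR (2.04-fold, single-copy summit).

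The exonic region with the highest fold of any list was among them, in the 3' UTR of Cd274, which encodes the checkpoint ligand PD-L1 (chr19:29386162-29386354, 3.71-fold, −log10 p 4.79, −log10 q 0). Irgm1 followed at 2.78-fold in its coding exon, where a second Treg Ku70 region in the same gene, not exonic at its summit, had 2.56-fold. Irf1, an interferon regulatory transcription factor (2.04-fold), and Ifi44, an interferon-induced protein (2.04-fold), had 3' UTR regions. The coding exons of Gbp4, a guanylate-binding protein (2.04-fold), Iigp1, an immunity-related GTPase (2.04-fold), and Samd9l, an antiviral factor (1.85-fold), held 1 each. Gvin1 (2.41-fold) and Gm4070 (2.22-fold), of the very large GTPases, had summits in 6 and 3 copies.

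Tgtp1 and Tgtp2, neighbouring immunity-related GTPase genes with almost identical sequence, held 6 of these regions. Tgtp2 had 4: coding regions at 2.78-fold and 2.36-fold and 3' UTR regions at 1.85-fold and 1.79-fold. Tgtp1 had 2 in its 3' UTR, at 2.60-fold and 1.73-fold. The 31 bases at each of these 6 summits occurred in 2 places, so reads could not be assigned to one gene with certainty. All 15 exonic regions of the listed interferon-related genes lay wholly inside the exon, and 7 had single-copy summits. As for the muscle genes, reads across splice junctions were not tested. Treg Ku70 also had regions elsewhere in these genes, outside exons or close to a start. With the 11 exonic ones included, 20 Treg Ku70 regions lay in 12 of the GTPase genes, out of 5149 regions of that list. WT FOXP3, KO FOXP3 and Tconv Ku70 had 0 each, out of 1690, 513 and 1691 regions. The region assigned to Gbp4 also lies within the overlapping gene models of Gbp8 and Gbp9, which are counted among the 12. On chromosome 11, where Irgm1, Tgtp1, Tgtp2, Irf1 and Ccr7 lie, the list had 17 exonic regions, 12.5% of its exonic regions beside 5.26% of all its regions. Tconv Ku70, with no exonic region in the listed interferon-related genes, had 8 on that chromosome, 13.1% beside 5.91%. The share of eligible bases on chromosome 11 is not given here, so a clustering of exonic regions there was not tested.

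**Figure D4:**
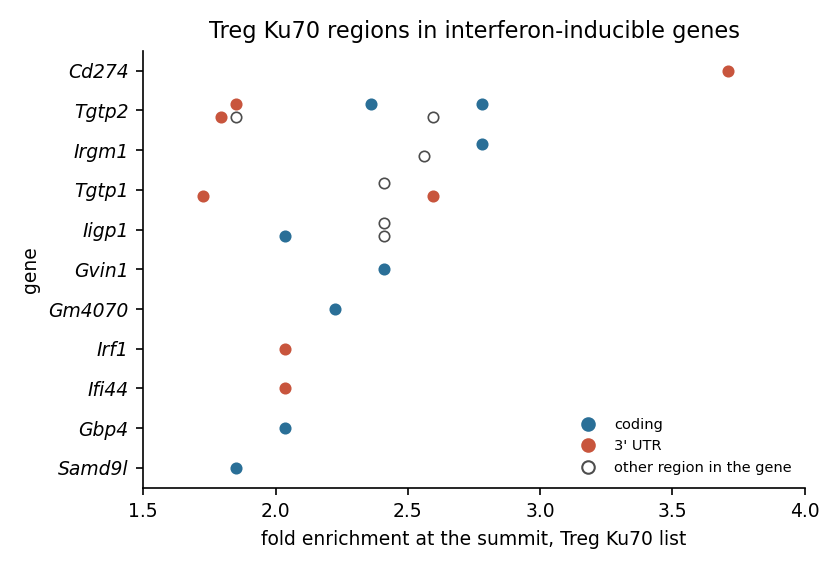
Fold enrichment at the summit of Treg Ku70 regions in each listed interferon-related gene with an exonic region. Filled points are exonic regions (blue coding, red 3' UTR), open points other regions of the same gene, and points of a gene are shifted vertically for clarity, with Tgtp2 showing 4 exonic regions and Cd274 the highest value at 3.71-fold.

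Other genes with 2 exonic Treg Ku70 regions were Gimap4, a GTPase of lymphocyte survival (3' UTR at 2.22-fold and coding at 1.85-fold), Ms4a6b, a membrane protein of T cells (3' UTR at 2.56-fold and coding at 2.36-fold), Abca12, a lipid transporter of skin (2.04-fold and 1.85-fold), and D10Wsu102e (2.05-fold and 1.85-fold, with 6 and 144 copies of the summit bases). The summits in Gimap4, Ms4a6b and Abca12 were single-copy.

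Of the 66 Treg and T cell genes listed with eligible bases (0.464% of such bases), 2 held an exonic region, both in Treg Ku70. Ccr7 was at 2.78-fold (−log10 p 2.64) over 604 bp, with its summit in the coding part of the last exon, and Il2rb at 2.04-fold (−log10 p 1.47). All 71 annotated genes of that list, with or without eligible bases, held 22 Treg Ku70 regions anywhere, in 16 genes. Most of those regions were therefore outside exons or near a start. Foxp3 lies on the X chromosome and was outside this set, and Il2ra, Ctla4 and Ikzf2 had no exonic region in any list. Of 24 listed genes of end joining and repair with eligible bases, among them Xrcc5, Prkdc and Lig4, 0 held an exonic region. These genes held 0.208% of the eligible bases.

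The 3 strongest regions of each class in Treg Ku70, besides Cd274, Irgm1, Tgtp2 and Pln, were in the 3' UTR of Cytip, an adaptor of lymphocyte adhesion (3.15-fold, −log10 p 3.31), and Atp2a2. Pln, Irgm1, Tgtp2, Ccr7 and Trim59 had the same coding values of 2.78-fold and −log10 p 2.64.

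In Tconv Ku70 the highest −log10 p of an exonic region was 7.28 in the 3' UTR of Speer4e (2.76-fold, 2 copies of the summit bases). The 3' UTR regions of Zfp936 and Gm9495 followed at 3.17-fold and −log10 p 3.45 each, Gm9495 with 8 copies, and that of Cyb5b, a cytochrome b5 of the mitochondrial outer membrane, had 2.99-fold. In coding exons, A530032D15Rik had 2.76-fold (−log10 p 4.51, 9 copies), the vomeronasal receptor gene Vmn2r114 had 2.88-fold (−log10 p 3.53) and Zfp991 had 2.32-fold (−log10 p 2.86, 6 copies).

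In WT FOXP3 the strongest coding regions were in Gm5148 (2.89-fold, −log10 p 3.07, 10 copies), Zfp980 (2.35-fold, 10 copies) and Neb. In the 3' UTR they were in Rspo2, a secreted Wnt agonist, Fsd2 and Mrpl3, a mitochondrial ribosomal protein, each at 2.44-fold with a −log10 p of 2.44. In KO FOXP3, Gm14412, a zinc finger gene model (2.10-fold), and Serpine3, a serpin (1.90-fold), were the other 2 coding regions, after Mb.

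Zinc finger genes held 2 exonic regions in WT FOXP3, 0 in KO FOXP3 by the symbols used, 6 in Treg Ku70 and 6 in Tconv Ku70, or 6.90%, 0%, 4.41% and 9.84% of the exonic regions, beside 3.22% of eligible bases. The linker sequence GAGAAACC, on either strand within 50 bp of the summit, was near 2 of 29 exonic WT and 1 of 10 KO FOXP3 summits, and near 0 of 136 Treg and 4 of 61 Tconv Ku70 summits. Among other regions of the lists it was near 0.602%, 0.994%, 0.758% and 0.982%. In coding exons and on the strand of the gene it was found in 6 regions of 5 genes, whose summit bases occurred 10 (Zfp980, WT FOXP3), 21 (Zfp987), 125 (Gm14412), 6 (Zfp991), 11 (Zfp981) and 5 (Zfp980, Tconv Ku70) times in the genome. None of these can be assigned to 1 gene with certainty. Olfactory, vomeronasal and taste receptor genes held 6 exonic Treg Ku70 and 4 Tconv Ku70 regions, 4.41% and 6.56%, beside 4.12% of eligible bases.

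Exonic summits were less often multi-copy than the other summits of the Ku70 lists. A summit was multi-copy when its surrounding 31 bases occurred more than once in the genome, as did 34.4% of WT and 36.6% of KO FOXP3 summits, and 27.6% of Treg and 32.5% of Tconv Ku70 summits. In Treg Ku70, 23 of 136 exonic summits (16.9%, 11.5 to 24.1%) and 27.9% of the others were multi-copy (odds ratio 0.525, Fisher's exact test, p = 0.00460, adjusted p = 0.0104). In Tconv Ku70 these were 10 of 61 (16.4%, 9.16 to 27.6%) and 33.1% (odds ratio 0.397, exact p = 0.00520, adjusted p = 0.0104). In WT FOXP3, 6 of 29 (20.7%) stood beside 34.7% (odds ratio 0.491, exact p = 0.166, adjusted p = 0.222), and in KO FOXP3 3 of 10 (30%) beside 36.8% (odds ratio 0.737, exact p = 0.753, adjusted p = 0.753). With 51 bases in place of 31, neither Ku70 list passed the test (odds ratio 0.541, adjusted p = 0.0598 in Tregs and 0.580, adjusted p = 0.265 in Tconv cells, exact tests). The multi-copy shares of exon bases and of the bases outside exons were not computed. The multi-copy tests therefore cannot separate a property of the exonic regions from a difference between exons and other sequence, which was not tested.

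**Figure D5:**
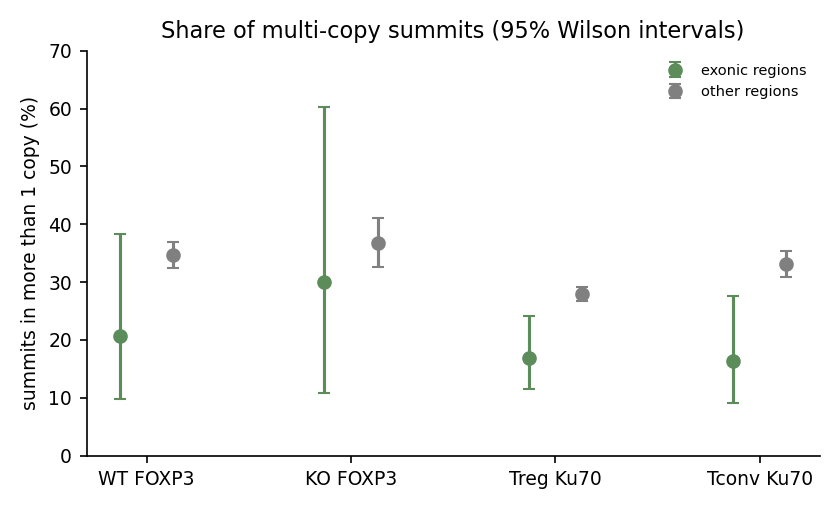
Share of summits whose 31 bases occur more than once in the genome, in percent, for exonic and other regions of each list. Points are shares with 95% Wilson intervals, and the exonic share was 16.9% against 27.9% in Treg Ku70 and 16.4% against 33.1% in Tconv Ku70.

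The forkhead core TGTTTAC, the short motif that forkhead factors bind, was found near few exonic summits. On either strand within 50 bp of the summit it was found in 1 of 29 WT FOXP3 exonic regions (Mrpl3), 1 of 10 KO FOXP3 regions (Lrrc18), 1 of 136 Treg Ku70 regions (Olfr481) and 0 of 61 Tconv Ku70 regions, each of the 3 in a 3' UTR. In the other regions of the lists the shares were 1.44%, 1.79%, 1.06% and 0.736%.

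Of the families listed by symbol, solute carriers (2.05% of eligible bases) held no exonic WT FOXP3 region, 1 KO FOXP3 region in Slc30a4, 1 Treg Ku70 region in Slc22a26, and 2 Tconv Ku70 regions in Slc16a1 and Slc3a1. Cadherins held 1, in the 3' UTR of Cdh4 in Treg Ku70. Collagens, motor proteins and the listed chromatin regulators held 0 in every list, with 0.459%, 1.03% and 0.741% of eligible bases.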

How the data were processed

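FOXP3 ChIP-seq in WT and KO Tregs and Ku70 ChIP-seq in Tregs and Tconv cells were analysed from 4 deposited lists. The authors used Trim Galore for trimming, Bowtie2 for alignment to mm10 and Picard for duplicate removal, and called regions with MACS2 on pooled replicates against input, with no shifting model and a p-value limit of 0.05. Their versions are not given in the sources used here. The deposited signal value is a fold enrichment (ratio) of the summit against its local background. Each deposited summit also has a −log10 p-value, a −log10 q-value and an offset in bp from the start of its region. Calling on pooled replicates leaves no replicate error, and a p-value of 0.05 without correction admits many weak regions. Groups follow the labels (Treg, Tconv, KO), although names of regions in the lists use iTreg, Teff and CKO.

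Summits of 1 region were combined, keeping the highest fold. Summits were annotated with GENCODE M21 on chromosomes 1 to 19, coding before 3' UTR where transcripts differed (12 regions). Copies of the 31 bases around a summit were counted in the reference on both strands. Two-sided Fisher's exact tests compared lists, with Benjamini-Hochberg adjustment, over 3 comparisons of shares, 4 overlaps and 4 multi-copy tests. The genes named were the 3 regions with the highest −log10 p per list and class, regions that overlap another list, genes in 2 or more lists or with 2 or more regions in 1 list, T cell and repair genes, and regions with −log10 q above 0. Genes of the interferon and muscle lists and those near the distance limit or with a motif were named after their values were seen. The exonic regions and all lists were chosen with earlier results of these data known. Alternatives were other distances from starts, exon definitions, strength and list size, overlap rules, 51 bases and other motifs. The steps were tested on simulated data. The tools were scipy 1.17.1, pandas 2.3.3, numpy 2.4.6 and matplotlib 3.10.9 in Python 3.11.15. The X chromosome, unplaced contigs and reads were not analysed here, and some withheld items are not reported here.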

Additional observations from a re-analysis of the deposited data

How the results depend on the processing

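Of 155 values recomputed under alternatives (141 planned and 14 chosen after seeing the data), 133 stayed close to the value given: tested values kept their direction and side of the threshold, shares moved by less than their interval and counts by no more than 1.5 times. The exon share of Treg Ku70 was 3.28% with 1 kb from starts, 4.31% with no distance, 3.61% with any exonic base and 4.68% among the 513 strongest regions. That of Tconv Ku70 was 5.09% with no distance and 4.97% with any exonic base. The odds ratio of Treg to Tconv Ku70 passed the test with 1 kb (0.731) and with any exonic base (0.717), and it reversed to 1.35 among the strongest regions. Without the interferon genes it was 0.645, which supports nothing, since those genes were chosen after seeing the data for their Treg Ku70 regions and their removal could only lower it. The odds ratio of WT FOXP3 to Treg Ku70 passed with 1 kb (0.569), no distance (0.538), any exon of the gene (0.582), any exonic base (0.581) and the strongest regions (0.364). It did not pass at a −log10 p of at least 2 (0.931), with single-copy summits (0.678) or without chromosome 11 (0.702). Nor did it pass with protein-coding transcripts only (0.648), with every summit kept (0.628) or without the interferon genes (0.723). WT against KO FOXP3 reversed to 1.03 at a −log10 p of at least 2 (exact p = 1). The multi-copy odds ratios with 51 bases, 0.541 and 0.580, did not pass. With 100 bp either side, the forkhead core was near 2 WT FOXP3, 2 KO FOXP3 and 4 Treg Ku70 exonic summits, and TRTTKAC was near 3 in Treg Ku70. The cause of these differences was not tested. The overlap of KO FOXP3 with Treg Ku70 passed under every overlap rule tested on regions, with an odds ratio of 19.2 for at least 50% of the shorter region. No paired analysis was possible because each list pools its replicates, and no replicate could be left out for the same reason. The KO FOXP3 list holds 10 exonic regions, which limits every share of it.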

Other observations

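Some exonic regions not covered above lay in genes of lymphocyte biology, and they were chosen for mention after their values were seen. In Treg Ku70, 3' UTR regions were in Themis, a regulator of T cell receptor signals (2.04-fold), Rhoh, a GTPase of T cell receptor signalling (2.18-fold), Rora, a nuclear receptor of lymphocytes (2.04-fold), Mcl1, a survival factor (2.39-fold), Cd200r1, an inhibitory receptor (2.04-fold), and Ppp3ca, the catalytic subunit of calcineurin (2.04-fold), and each summit was single-copy. In Tconv Ku70, 3' UTR regions were in Cblb (2.26-fold) and Itch (1.77-fold), ubiquitin ligases that restrain T cell activation, and in Klrb1c, an NK cell receptor (2.25-fold). Of the repair genes outside the list used, Palb2, a partner of BRCA2, had a coding region in Treg Ku70 at 2.04-fold, with 36.9% of its bases in the exon. The Treg Ku70 regions of Palb2, Themis, Rora, Cd200r1 and Ppp3ca had a −log10 p of 1.47, the commonest score of that list. The Tconv Ku70 region of Itch also had a −log10 p of 1.47. Every region named in this paragraph had a −log10 q of 0.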
